A study of Mus musculus with 20 samples.

Results

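Type 1 alveolar epithelial cells are thin, flat cells that cover most of the gas-exchange surface of the lung. They form the air side of the barrier across which oxygen enters the capillary blood, take part in moving water and ions, and are renewed from type 2 cells, the cuboidal cells that make surfactant. The 7 genes described here, Ager, Hopx, Aqp5, Rtkn2, Clic5, Akap5 and Igfbp2, are markers used for type 1 cells in the mouse lung and were taken by name from 30691 named rows of the expression table. All 7 were present in every library and all 7 passed the filter on low values, which 21658 genes passed.

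Whole lungs of C57BL/6 wild-type mice (WT) and of mice with a targeted deletion of Vip, the gene for vasoactive intestinal peptide (VIPKO), were profiled by RNA sequencing. The groups were VIPKO in hypoxia (5 libraries), VIPKO in normoxia (4), WT in hypoxia (5) and WT in normoxia (6). Hypoxia was 10% oxygen and normoxia 21% oxygen, each for 4 weeks. The study asked how loss of Vip and chronic hypoxia act on a lung with pulmonary hypertension. The sample titles say knockout while the genotype field says knockdown, and the sources used here do not give age, sex or the number of animals behind each library, so p-values measure the spread between these libraries, which may be technical.

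Values are a normalized signal with a total of 18.2 M to 21.0 M per library (M for mega). Depth estimated by taking the most frequent low value above 0 as 1 read ran from 4.96 M reads in WT hypoxia 4 to 56.7 M in WT normoxia 4. Vip itself did not separate the genotypes: its highest signal was 106 in the library labelled VIPKO hypoxia 4 and its next highest 93.0 in WT normoxia 5, with group medians of 2.17 in VIPKO hypoxia, 4.79 in VIPKO normoxia, 2.37 in WT hypoxia and 3.64 in WT normoxia. Library names and directions between genotypes therefore rest on the labels. On the first principal component of log2 signal, VIPKO normoxia 3, VIPKO hypoxia 2 and VIPKO normoxia 2 lay highest, at 59.2 to 75.4, with the next library at 33.6. They are called the 3 libraries apart, and a fit without them keeps only VIPKO normoxia 1 and 4 of that group. At the other end VIPKO hypoxia 3 lay at -76.2, WT hypoxia 3 at -58.9 and WT hypoxia 5 at -58.5, with the next library at -40.9. The sign of a component is arbitrary, so the name marks a single end and not the only libraries far out. Mitochondrial ribosomal RNA, a sign of library make-up, had a summed signal of 12034 to 27208 in VIPKO normoxia, against 97.7 to 2075 in WT normoxia. It was 4506 to 9415 in VIPKO hypoxia, against 396 to 7058 in WT hypoxia. Xist, the RNA of the inactive X chromosome, had a signal over 1000 in 3 of 5 VIPKO hypoxia, 1 of 4 VIPKO normoxia, 3 of 5 WT hypoxia and 2 of 6 WT normoxia libraries, so the groups were mixed in unequal shares.

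The level of the 7 genes did not pass the test for a difference in any comparison. Of the 7 members, 0 were called between VIPKO and WT in normoxia, where 8.65% of all tested genes were called, and 0 between VIPKO and WT in hypoxia, where 1.62% were. For hypoxia against normoxia the count was 0 in VIPKO, with 0.997% of all genes called, and 0 in WT, with 14.7% called. The interaction of genotype and oxygen called 0 members and 0.282% of all genes. Among all genes, VIPKO against WT gave 4.69% called higher and 3.96% called lower in normoxia, with 0.716% higher and 0.9% lower in hypoxia. Hypoxia gave 0.614% higher and 0.383% lower in VIPKO, with 7.88% higher and 6.77% lower in WT, and the interaction gave 0.134% positive and 0.148% negative. Calls are Benjamini-Hochberg adjusted p under 0.05 from limma on log2(signal + 1). At an unadjusted p under 0.05 the counts were 1, Igfbp2 in hypoxia against normoxia in VIPKO, and 0 in the other 4 comparisons, and limma with voom weights on estimated reads also called 0 in each of the 5. A p that misses the threshold does not show that levels were the same, so intervals are given with the differences. The ranges of the groups overlapped for 7 of 7 members in each pairwise comparison, while 9.87% of all genes had groups that did not overlap between VIPKO and WT in normoxia, 3.76% between VIPKO and WT in hypoxia, 5.13% between hypoxia and normoxia in VIPKO and 7.94% in WT. In whole lung, fewer type 1 cells and less RNA of a gene per cell cannot be told apart.

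The stretches of 250 bases before the start sites are shown for 4 members, since hypoxia was one of the conditions, though it called no member. They are reference sequences from RefSeq (GRCm38.p6), which held start sites for 6 of the 7 members, Rtkn2 being the member without an entry, and all 4 windows overlap no annotated exon. Capitals mark matches to ACGTG or GCGTG, the core of the hypoxia response element to which hypoxia-inducible factors bind, read on either strand. In order, the windows are chr17:34597600-34597849 on the plus strand for Ager, chr17:44188322-44188571 on the plus strand for Clic5, chr1:72824230-72824479 on the plus strand for Igfbp2 and chr5:77115124-77115373 on the minus strand for Hopx.
Ager: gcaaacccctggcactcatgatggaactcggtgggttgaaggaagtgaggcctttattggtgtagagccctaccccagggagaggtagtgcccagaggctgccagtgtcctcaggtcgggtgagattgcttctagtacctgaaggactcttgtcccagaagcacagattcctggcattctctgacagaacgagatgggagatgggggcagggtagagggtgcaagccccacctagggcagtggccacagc
Clic5: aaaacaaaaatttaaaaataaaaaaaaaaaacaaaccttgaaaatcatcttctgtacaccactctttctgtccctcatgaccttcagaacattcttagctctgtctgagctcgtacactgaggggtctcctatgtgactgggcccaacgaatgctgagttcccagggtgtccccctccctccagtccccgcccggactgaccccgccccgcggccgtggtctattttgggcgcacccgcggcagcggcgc
Igfbp2: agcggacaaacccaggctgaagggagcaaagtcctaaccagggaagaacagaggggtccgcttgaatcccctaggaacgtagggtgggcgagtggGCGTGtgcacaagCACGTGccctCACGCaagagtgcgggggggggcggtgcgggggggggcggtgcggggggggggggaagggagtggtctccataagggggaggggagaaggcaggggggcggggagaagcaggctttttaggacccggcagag
Hopx: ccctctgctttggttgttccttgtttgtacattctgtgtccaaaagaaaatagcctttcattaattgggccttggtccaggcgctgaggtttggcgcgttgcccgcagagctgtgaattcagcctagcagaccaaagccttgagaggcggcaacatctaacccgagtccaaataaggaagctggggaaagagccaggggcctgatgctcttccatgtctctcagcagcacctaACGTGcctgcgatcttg

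The window of Igfbp2 held 4 matches to the hypoxia core, beginning 155, 142, 141 and 132 bases before the start site. The middle 2 lie on opposite strands of the same CACGTG, which is also an E-box, so they are not separate places. The Hopx window held 1 match, 17 bases before the start, and the Ager and Clic5 windows held none. Of the windows not shown, that of Aqp5 held 5 matches, that of Akap5 held 1, and the downstream start sites of Hopx and Igfbp2 held 4 and 0. The Aqp5 matches at 87 and 86 bases share a single CACGTG, as do the downstream Hopx matches at 86 and 85 bases. The windows of Aqp5 and of both downstream start sites overlap annotated exons of their own genes. Of all 32851 promoter windows of the same length, 38.6% held such a match. Neither GGAATG, a core bound by the TEAD factors that act with YAP and TAZ, nor CAAGTG, a core bound by the lung regulator NKX2-1, occurred in any of the 8 start-site windows of the members. These letters occurred in 12.64% and 11.61% of all windows. A match or its lack describes letters only.

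Ager encodes the receptor for advanced glycation end products (RAGE), which lies on the basal side of type 1 cells and is far higher in lung than in other tissues. The gene lies on chromosome 17 at 34597862 to 34600936 of GRCm38, with 11 exons in its longest coding transcript. Its signal was 19226, 21604, 30537, 24413 and 22372 in VIPKO hypoxia 1 to 5 and 19857, 20067, 18155 and 26988 in VIPKO normoxia 1 to 4. It was 32009.9, 24433, 29156, 17986 and 21131 in WT hypoxia 1 to 5, while WT normoxia ran from 13218 through a median of 20504 to 27259.9. The groups overlapped in all 4 pairwise comparisons, and the highest and the lowest library were both WT, WT hypoxia 1 and WT normoxia 2. Ager averaged 24943 ± 5720 in WT hypoxia and 20833 ± 4633 in WT normoxia (SD, n = 5 and 6), a log2 difference of 0.26 ± 0.17 (SE, 95% interval -0.10 to 0.62, limma adjusted p = 0.299). In VIPKO the means were 23631 ± 4284 in hypoxia and 21267 ± 3909 in normoxia (n = 5 and 4), with a log2 difference of 0.15 ± 0.19 (limma adjusted p = 0.772). VIPKO against WT gave 0.05 ± 0.18 in normoxia and -0.06 ± 0.18 in hypoxia.

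Aqp5 encodes a water channel of the air-facing membrane of type 1 cells, found in salivary and airway glands as well (chromosome 15, 99590782 to 99594829). It had 3499, 3061, 4844, 4040.4 and 3894 in VIPKO hypoxia 1 to 5 and 3523, 3562, 2719 and 4541 in VIPKO normoxia 1 to 4. It had 5658, 4734, 4781, 3518 and 4199 in WT hypoxia 1 to 5, and 3500.5, a median of 3910.45 and a highest value of 4461 in WT normoxia. WT normoxia was the tightest group, with an SD of 313, and its range overlapped that of every other group. The log2 difference for hypoxia was 0.20 ± 0.13 in WT (95% interval -0.07 to 0.48, limma adjusted p = 0.280) and 0.12 ± 0.14 in VIPKO (limma adjusted p = 0.768). VIPKO against WT gave -0.24 ± 0.14 in hypoxia (limma adjusted p = 0.345) and -0.15 ± 0.14 in normoxia (limma adjusted p = 0.521).

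Clic5 encodes a chloride intracellular channel protein that is tied to the actin cytoskeleton through ezrin-family proteins (chromosome 17, 44188584 to 44280172, the longest span of the 7 genes at 91589 bases). It was the highest of the 7 by signal per gene, 36th of 21658 genes. Its signal was 21126 to 27342 in VIPKO hypoxia, 17415 to 29991 in VIPKO normoxia, 20793 to 30371 in WT hypoxia and 21051 to 30496 in WT normoxia. The ranges overlapped, and the SD was largest in VIPKO normoxia, at 5221, and smallest in VIPKO hypoxia, at 2852. The lowest library was VIPKO normoxia 3 and the highest WT normoxia 5. Its 4 pairwise log2 differences lay between -0.14 and 0.08, each with an SE of 0.13 to 0.15, and the lowest of their limma adjusted p values was 0.565.

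Hopx encodes a small homeodomain protein without DNA binding that is used to trace type 1 cells (chromosome 5, 77086988 to 77115121, minus strand). It overlaps an antisense gene, Hopxos, and whether the counting used strand is not given in the sources used here, so its values may hold reads of that gene. Its signal was 4914, 5396, 8009, 6760.0 and 7252 in VIPKO hypoxia and 6395, 5678, 5529 and 8448 in VIPKO normoxia. It was 9137, 6818, 6696, 4509 and 5330.2 in WT hypoxia, against 5251, a median of 5816 and a highest value of 7131 in WT normoxia. The highest and the lowest value of all were in the same group, WT hypoxia 1 and WT hypoxia 4. All 4 pairwise log2 differences were between -0.01 and 0.09 with SEs of 0.16 to 0.18, and the limma adjusted p values were 0.789 to 0.984.

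Rtkn2 encodes a protein of the rhotekin family (chromosome 10, 67979570 to 68059740), and it overlaps the antisense model Gm16212, with the same limit on strand. Its signal was 4492, 5704, 4209.7, 4676 and 5335 in VIPKO hypoxia and 5806, 5619, 5053 and 7202 in VIPKO normoxia. It was 7746, 7196, 6762, 3930.0 and 5286 in WT hypoxia, and 5681, a median of 6927 and a highest value of 7308 in WT normoxia. In WT hypoxia, library 4 lay below the range of VIPKO hypoxia, library 5 inside it and libraries 1 to 3 above it. VIPKO against WT in hypoxia gave a log2 difference of -0.31 ± 0.15 (95% interval -0.62 to 0.00, unadjusted p = 0.0511, limma adjusted p = 0.267). The 2-sided exact permutation p was 0.159 over 252 splits. Without WT hypoxia 4, the shallowest library, the log2 difference of Rtkn2 was -0.46 ± 0.12 with a limma adjusted p of 0.0492, so that 1 library decides on which side of the threshold it lies. Hypoxia against normoxia gave -0.27 ± 0.16 in VIPKO (limma adjusted p = 0.472) and -0.15 ± 0.14 in WT (limma adjusted p = 0.493).

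Akap5 encodes a scaffold that anchors protein kinase A, protein kinase C and calcineurin at the membrane (chromosome 12, 76324891 to 76334153). Its signal was 10605, 11174, 12227, 12990.1 and 12668 in VIPKO hypoxia and 11514, 11082, 11392 and 14581 in VIPKO normoxia. It was 19310.3, 16671, 16195, 10247 and 12163 in WT hypoxia, against 11412, a median of 14125 and a highest value of 18511 in WT normoxia. All VIPKO hypoxia libraries lay in the lower part of the WT hypoxia range, and 2 of 4 VIPKO normoxia libraries lay just below the lowest WT normoxia value. The log2 difference of VIPKO against WT was -0.29 ± 0.15 in hypoxia (95% interval -0.61 to 0.03, limma adjusted p = 0.311) and -0.28 ± 0.16 in normoxia (95% interval -0.60 to 0.04, limma adjusted p = 0.270). Hypoxia against normoxia gave -0.02 ± 0.16 in VIPKO and -0.01 ± 0.15 in WT.

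Igfbp2 encodes a secreted protein that binds insulin-like growth factors, and in mouse lung it marks mature type 1 cells (chromosome 1, 72824503 to 72852474). Its signal was 3618, 4302, 6354, 4524 and 5709 in VIPKO hypoxia, against 3996, 2904, 1913 and 3911 in VIPKO normoxia. It was 6457, 4682, 4409, 5609 and 4645 in WT hypoxia, against 2525, a median of 4006 and a highest value of 6278 in WT normoxia. VIPKO normoxia held the lowest library of all, number 3, and its 4 values lay below 4 of the 5 values in VIPKO hypoxia. The means were 4901 ± 1108 in VIPKO hypoxia and 3181 ± 980.0 in VIPKO normoxia (SD, n = 5 and 4), a log2 difference of 0.65 ± 0.23 (95% interval 0.17 to 1.14). The unadjusted p was 0.0111, the limma adjusted p over all genes was 0.226 and the 2-sided exact permutation p was 0.0476 over 126 splits, or 0.539 adjusted over the 28 such tests of the 7 genes. Without VIPKO normoxia 3 the log2 difference of Igfbp2 was 0.43 ± 0.23 with a limma adjusted p of 0.614. Without the 3 libraries apart it was 0.32 ± 0.27 with a limma adjusted p of 0.831. All 3 belong to this comparison and only VIPKO normoxia 1 and 4 then remain in that group, so the higher p may come from the lost libraries. In WT the difference of hypoxia was 0.34 ± 0.21 (95% interval -0.10 to 0.78, limma adjusted p = 0.269), and the interaction was 0.31 ± 0.32 (limma adjusted p = 0.688). VIPKO against WT gave -0.09 ± 0.22 in hypoxia and -0.40 ± 0.23 in normoxia (limma adjusted p = 0.862 and 0.273).

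**Figure D1:**
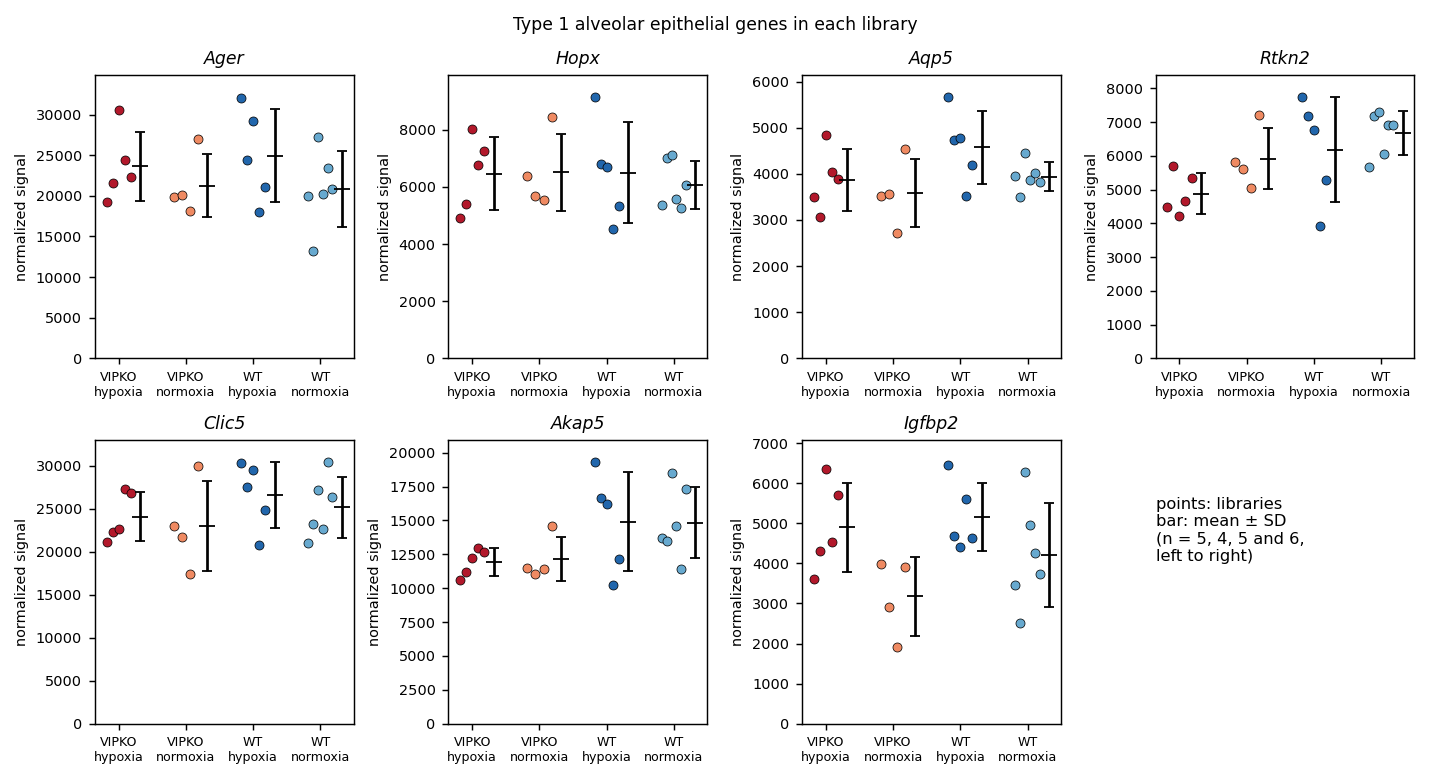
Normalized signal of the 7 genes (vertical axes, linear, from 0) in each library by group (horizontal axes). Points are libraries and bars the mean ± SD (n = 5, 4, 5 and 6). The ranges of compared groups overlap for all 7 genes.

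By level per kb of the longest annotated transcript, Ager was highest, with a mean of 12072 per kb over the 20 libraries. It was followed by Hopx at 5046, Clic5 at 4233, Igfbp2 at 3376, Aqp5 at 2231, Akap5 at 2033 and Rtkn2 at 1344 per kb. The order of the 4 group means differed between genes. WT hypoxia had the highest mean for Ager, Aqp5, Clic5, Akap5 and Igfbp2, VIPKO normoxia for Hopx and WT normoxia for Rtkn2. VIPKO normoxia had the lowest mean for Aqp5, Clic5 and Igfbp2, VIPKO hypoxia for Rtkn2 and Akap5, and WT normoxia for Ager and Hopx. No neighbours in these orders that the 4 pairwise comparisons cover differed past the threshold, so each order is a description of means.

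Between VIPKO and WT, the median log2 difference of the 7 genes was -0.14 in hypoxia, where 6 of 7 were lower in VIPKO, and -0.15 in normoxia, where 5 of 7 were lower. The medians over all tested genes were 0.02 and 0.01. For hypoxia against normoxia the median of the 7 was 0.08 in VIPKO and 0.08 in WT, beside -0.01 for all genes in each. The 95% interval stayed within a 2-fold change in either direction for 7 of 7 genes in each comparison other than hypoxia against normoxia in VIPKO, where it did for 6, Igfbp2 being the exception. The comparisons share libraries, and so their differences are not independent of each other. Most pairs of the 7 genes were also correlated across libraries, so their directions are not independent either. The plot of fitted differences shows these intervals.

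**Figure D2:**
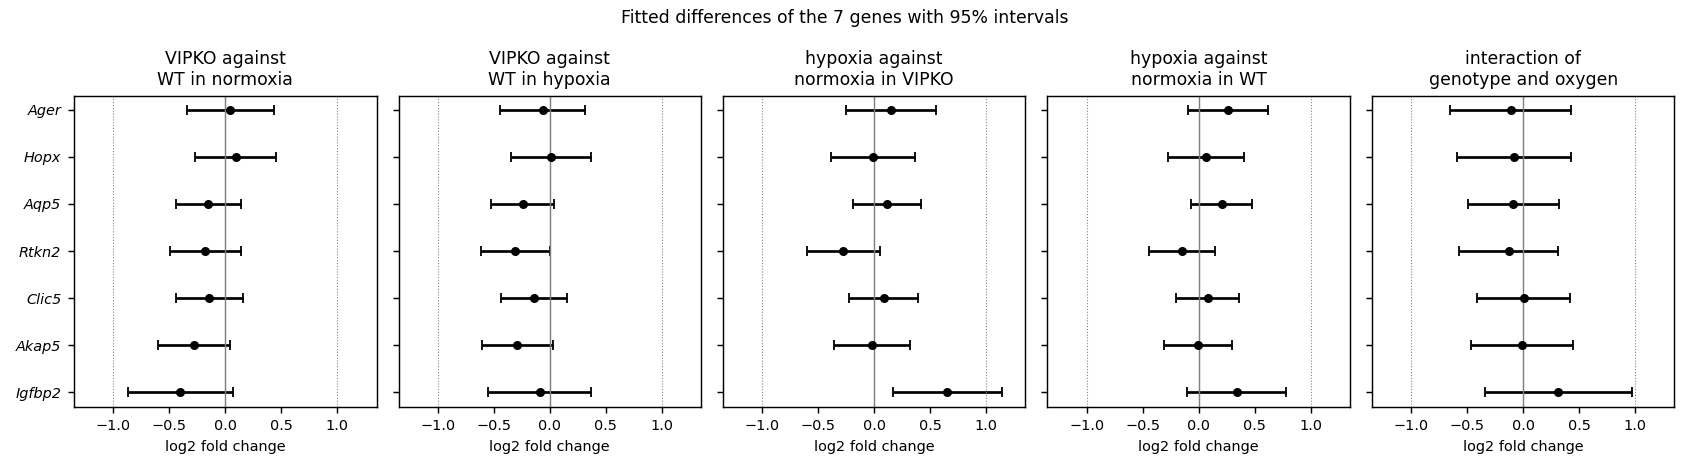
Fitted log2 differences (horizontal axes) of the 7 genes (rows) with 95% intervals in 5 comparisons. Dotted lines mark a 2-fold change. Only the interval of Igfbp2 in hypoxia against normoxia in VIPKO, 0.17 to 1.14, lies to one side of 0, and no gene was called.

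The within-group SD of log2 signal was 0.23 for Clic5 and for Aqp5, 0.25 for Rtkn2, 0.26 for Akap5, 0.29 for Hopx, 0.31 for Ager and 0.39 for Igfbp2. The median over 4401 genes with a mean signal of at least 1000 was 0.17, and for Igfbp2 94.4% of those genes had a lower SD. Over all tested genes the median was 0.32, above 6 of the 7 members, and 34.8% of all genes had a lower SD than Clic5 and 58.8% a lower SD than Igfbp2. Some libraries were high or low for most members at once. In WT hypoxia 1, 2 and 3 and in WT normoxia 3 all 7 genes were above their own mean over the 20 libraries, while 0 of 7 were in VIPKO hypoxia 1, VIPKO normoxia 2 and VIPKO normoxia 3. Averaged over the 7 genes, WT hypoxia 1 lay 0.49 above the mean on the log2 scale and VIPKO normoxia 3 lay at -0.44. Together the 7 genes took 0.335% to 0.427% of the signal in VIPKO hypoxia and 0.341% to 0.471% in VIPKO normoxia. They took 0.345% to 0.547% in WT hypoxia and 0.378% to 0.486% in WT normoxia. WT hypoxia thus contained the library with the highest share and a library near the bottom, WT hypoxia 4.

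**Figure D3:**
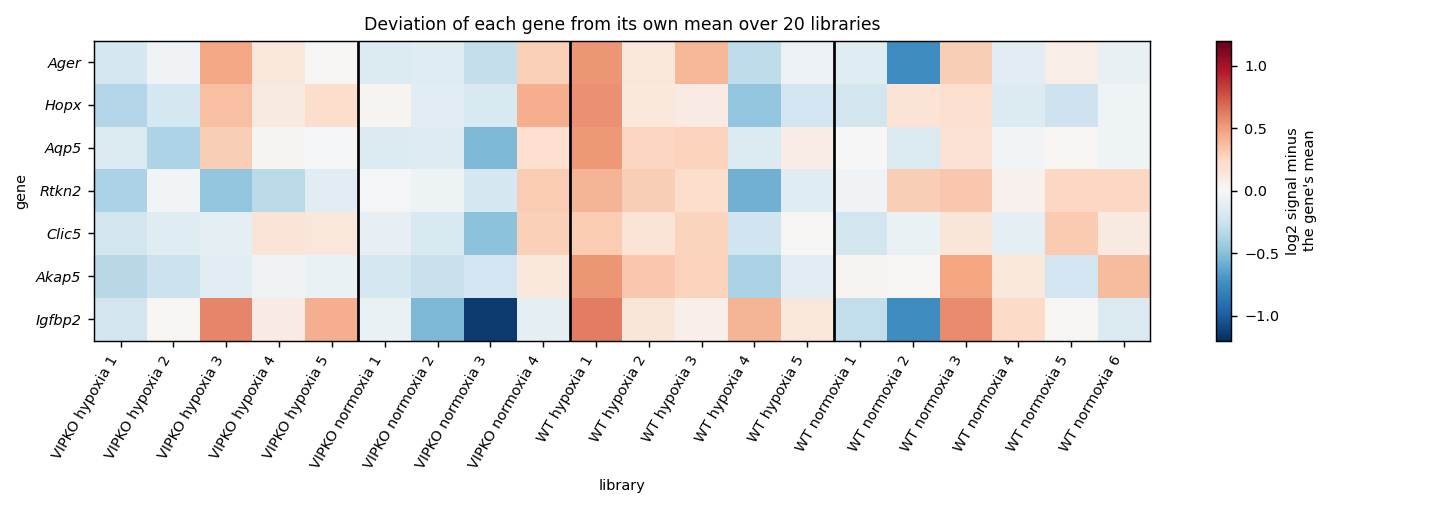
Deviation of log2 signal from each gene's mean over 20 libraries (colour, red above and blue below) for the 7 genes (rows) in each library (columns, black lines between groups). WT hypoxia 1 is above the mean for all 7 genes and VIPKO normoxia 3 below it for all 7.

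Correlations between the members were computed over the libraries. Of the 21 pairs of members, 20 had a positive Pearson r of log2 signal over the 20 libraries, with a median of 0.62 and a range of -0.02 to 0.78. Of deviations from the group means, 21 of 21 were positive, from 0.15 to 0.83 with a median of 0.67. The closest pair was Ager and Aqp5, with r = 0.78 (permutation p = 7e-05, 0.00126 adjusted over the 21 pairs) and Spearman's rho = 0.878 (permutation p = 1e-05, the smallest that 100000 resamples can give, 0.00021 adjusted). Without the 2 libraries farthest from the median of Ager, r was 0.812. Rtkn2 and Akap5 had r = 0.74 (permutation p = 0.0002, adjusted 0.0014), rho = 0.744 (permutation p = 0.00027, adjusted 0.00189) and 0.735 without the 2 farthest libraries. Rtkn2 and Igfbp2 were the pair with r = -0.02 (permutation p = 0.936). In all, 16 of 21 pairs had an adjusted permutation p of r under 0.05. The permutations shuffled values over all 20 libraries regardless of group, and no share of all gene pairs passing is given beside this count. Correlations of this size were common among all genes: Hopx, with r = 0.60 to Ager, took place 1348 among 12813 genes ordered by their r with Ager, and Akap5, with r = 0.51, took place 2279. The libraries share a normalization, and depth and tissue make-up differ between them, and what these contribute to the correlations was not tested.

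**Figure D4:**
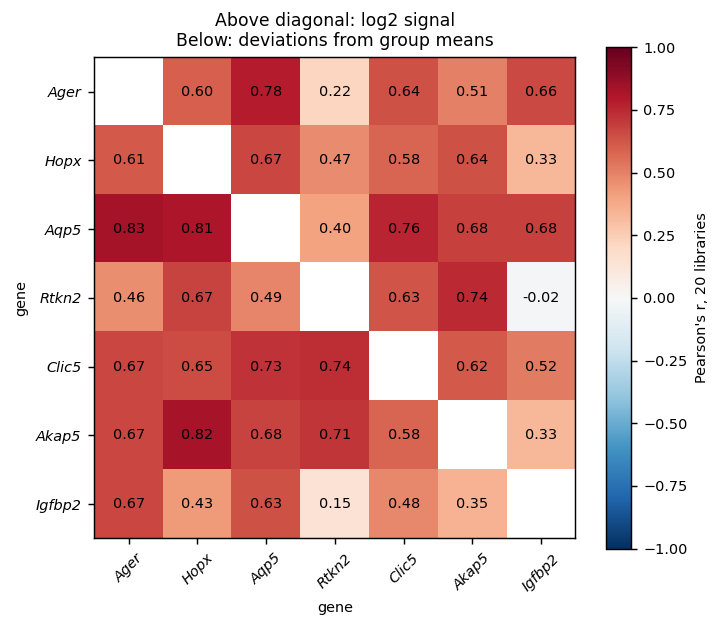
Pearson's r between pairs of the 7 genes over 20 libraries (colour and number), for log2 signal above the diagonal and for deviations from group means below it. Values run from -0.02 for Rtkn2 with Igfbp2 to 0.83 for the deviations of Ager with Aqp5.

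Among 12813 genes with a mean signal of at least 50, the genes most like Ager by Pearson's r over the 20 libraries were Krt7 at 0.92 and Myh14 at 0.91, followed by Dnajc14, Spop and Svbp at 0.89. Krt7 encodes a keratin of simple epithelia and is itself on a list of other type 1 genes, and Myh14 encodes a non-muscle myosin heavy chain. For Aqp5 they were Tcta at 0.92 and Plekhb2 at 0.90, for Clic5 Rassf8 at 0.94 and Uhmk1 at 0.90, and for Hopx Gipc2 and Prps1l3, both at 0.84. For Rtkn2 they were Ppp1r9a at 0.86 and Tead1, which encodes a TEAD transcription factor, at 0.84. Akap5 was most like Fgf1, a fibroblast growth factor, and Trp53bp2, both at 0.84, and Igfbp2 most like Kifc3 at 0.87 and Dohh at 0.84. Being the highest of 12813 correlations for each member, these are given as a description. The places of other members in these orders ran from 25, for Rtkn2 in that of Akap5, to 7896, for Rtkn2 in that of Igfbp2. In the order of Ager the nearest member was Aqp5 at place 149.

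A second list held 20 other genes used for type 1 cells. Between VIPKO and WT in normoxia, 1 of 20 fell and 0 rose, beside 3.96% and 4.69% of all genes, with a median log2 difference of -0.05. That gene was Vegfa, the endothelial growth factor that type 1 cells supply to the capillaries, with 14243 ± 1457 in VIPKO normoxia and 18843 ± 2717 in WT normoxia (SD, n = 4 and 6), a log2 difference of -0.40 ± 0.10 (limma adjusted p = 0.0200). This call was lost when VIPKO normoxia 2 or VIPKO normoxia 3 was left out, the highest limma adjusted p being 0.0897. Vegfa also fell in hypoxia in WT, with 14461 ± 945 in WT hypoxia against the same WT normoxia libraries, by 0.37 ± 0.09 on the log2 scale (limma adjusted p = 0.0156), and kept that call in each fit that left out 1 library. In the same comparison Cldn18, a tight-junction claudin of alveolar cells, rose by 0.43 ± 0.14 (limma adjusted p = 0.0485), a call lost in 14 of the 20 fits that left out 1 library, and the median of the 20 genes was 0.12. In hypoxia against normoxia in VIPKO, in VIPKO against WT in hypoxia and in the interaction, limma called 0 of 20. The counts at an unadjusted p under 0.05 there were 1, 5 and 1, and with voom weights 0, 1 and 0 were called.

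Each of the 37 calls made over all lists between VIPKO and WT in normoxia, Vegfa included, was lost with mitochondrial ribosomal RNA as a covariate and without the 3 libraries apart. Over all genes both fits called 0 in that comparison. In normoxia the summed signal of that RNA was at least 12034 in VIPKO and at most 2075 in WT. The covariate thus nearly follows genotype and can take up a genotype difference. The fit without the 3 libraries keeps only part of the VIPKO normoxia group, so calls may be lost from fewer libraries alone. Neither fit can therefore tell whether these differences go with genotype. These limits hold for every difference between VIPKO and WT in normoxia given from here on. In VIPKO that RNA also separated the oxygen levels, with 4506 to 9415 in hypoxia and 12034 to 27208 in normoxia. Hypoxia against normoxia in VIPKO therefore cannot be told apart from it. In WT hypoxia its range, 396 to 7058, overlapped that in VIPKO hypoxia, and its part in differences between them was not tested. The 3 libraries apart are all VIPKO and belong to these comparisons too.

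Type 2 cells, from which type 1 cells are renewed, have a list of 14 genes. In WT hypoxia, 10 of the 14 rose and 0 fell, with a median log2 difference of 0.58, beside 7.88% of all genes called higher in that comparison. Egfl6, an EGF-like secreted protein, rose by 0.73 ± 0.14 (limma adjusted p = 0.0042), and Lpcat1, which makes surfactant lipid, by 0.57 ± 0.11 (limma adjusted p = 0.00529). Sftpb, the surfactant protein B gene, had 76650.2 ± 15953 in WT hypoxia and 46556 ± 7880.0 in WT normoxia (SD, n = 5 and 6) and rose by 0.71 ± 0.15 (limma adjusted p = 0.00894). Napsa, a protease that processes surfactant protein B, rose by 0.64 ± 0.14 (limma adjusted p = 0.00964). In VIPKO, limma called 0 of 14 for hypoxia, with 3 at an unadjusted p under 0.05 and a median of 0.26. The interaction called 0 of 14, with 2 at an unadjusted p under 0.05, and voom weights called 0 in each, so a difference between the genotypes was not shown. The count in WT was 6 without WT hypoxia 3, 7 without WT hypoxia 1, 8 to 11 without any other library, and 6 with mitochondrial ribosomal RNA as a covariate. Without the 3 libraries apart it was 10. One of the 10 was Fasn, the fatty acid synthase gene, which adipocytes express too, with 35901 ± 24535 in WT hypoxia and 15195 ± 2240.3 in WT normoxia, a log2 difference of 1.04 ± 0.26 (limma adjusted p = 0.0156). Summed adipocyte signal was 682 to 16130 in WT hypoxia, highest in WT hypoxia 5, and at most 440.2 in WT normoxia. Without WT hypoxia 5 the type 2 count was 9. Between VIPKO and WT in normoxia 2 of 14 rose, Sftpd (0.78) and Lamp3 (0.65), beside 4.69% of all genes. Between VIPKO and WT in hypoxia 0 were called, with 4 at an unadjusted p under 0.05 and 2 lower with voom weights.

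The log2 ratio of Sftpc, the surfactant protein C gene of type 2 cells, to Ager was computed in each library. It rests on 1 gene of each cell type and was chosen after their values were known. Sftpc itself rose in WT hypoxia by 0.83 ± 0.23 (limma adjusted p = 0.0221), so the ratio is given without a test. It was 3.07 ± 0.15 in WT hypoxia, with a range of 2.94 to 3.28, and 2.50 ± 0.31 in WT normoxia, with a range of 2.11 to 2.84 (SD, n = 5 and 6). In VIPKO it was 2.95 ± 0.20 in hypoxia and 2.75 ± 0.12 in normoxia (n = 5 and 4), and those ranges overlapped.

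Beside 7.88% of all genes called higher in WT hypoxia, genes of the transitional state between type 2 and type 1 cells were called for 3 of 14 there, all higher. They were Clu (0.45 ± 0.12, limma adjusted p = 0.0203), Lgals3 (0.76 ± 0.22, limma adjusted p = 0.0267) and Krt18, a keratin of simple epithelia (0.74 ± 0.22, limma adjusted p = 0.0282). This count was 0 without WT hypoxia 1 or without WT hypoxia 3, 1 without WT normoxia 2, 2 to 5 without any other library, and 0 with mitochondrial ribosomal RNA as a covariate. Cdkn1a, the cell cycle inhibitor p21, was the gene called in VIPKO, beside 0.614% of all genes called higher in hypoxia. It rose there by 0.97 ± 0.19 (limma adjusted p = 0.0161). Without VIPKO hypoxia 1 or VIPKO hypoxia 4 that call was lost, the highest limma adjusted p being 0.0529. In normoxia it was lower in VIPKO than in WT, with a log2 difference of -0.60 ± 0.19 (limma adjusted p = 0.0493), a call lost in 15 of 20 fits that left out 1 library. In VIPKO against WT in hypoxia limma called 0 of 14, with 1 at an unadjusted p under 0.05 and 1 called with voom weights.

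Of 13 regulators of alveolar epithelial fate, 2 fell in VIPKO against WT in normoxia, beside 3.96% of all genes. Amotl2, a YAP target and binding partner, had 4175 ± 605 in VIPKO normoxia and 6075 ± 677 in WT normoxia (SD, n = 4 and 6), a log2 difference of -0.54 ± 0.10 (limma adjusted p = 0.00555). Gata6, a transcription factor of lung epithelium, differed by -0.41 ± 0.10 (limma adjusted p = 0.0166), a call lost without VIPKO normoxia 2 or VIPKO normoxia 3 (highest limma adjusted p = 0.0747). Klf5, a zinc-finger factor of alveolar fate, rose in WT hypoxia by 0.63 ± 0.13 (limma adjusted p = 0.007). It was the 1 regulator called there, beside 7.88% of all genes called higher. None of Nkx2-1, Yap1, Wwtr1 and Tead1 was called in any of the 5 comparisons, and limma called 0 of 13 in hypoxia against normoxia in VIPKO and in VIPKO against WT in hypoxia. At an unadjusted p under 0.05 the counts were 2 and 7, and voom weights called 0 and 1. Among 10 epithelial junction genes 5 rose in WT hypoxia, with a median of 0.38, beside 7.88% of all genes called higher. The smallest p values were those of Rab25, an epithelial trafficking GTPase (0.91 ± 0.18, limma adjusted p = 0.00505), Esrp1, an epithelial splicing factor (0.59 ± 0.12, limma adjusted p = 0.0055) and Cldn3, a claudin (0.78 ± 0.16, limma adjusted p = 0.00632). These 3 calls held in each fit that left out 1 library. In the other 4 comparisons limma called 0 of these 10, with 1 to 3 in each at an unadjusted p under 0.05, and voom weights called 2 in VIPKO against WT in hypoxia, 3 in the interaction and 0 in the others.

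**Figure D5:**
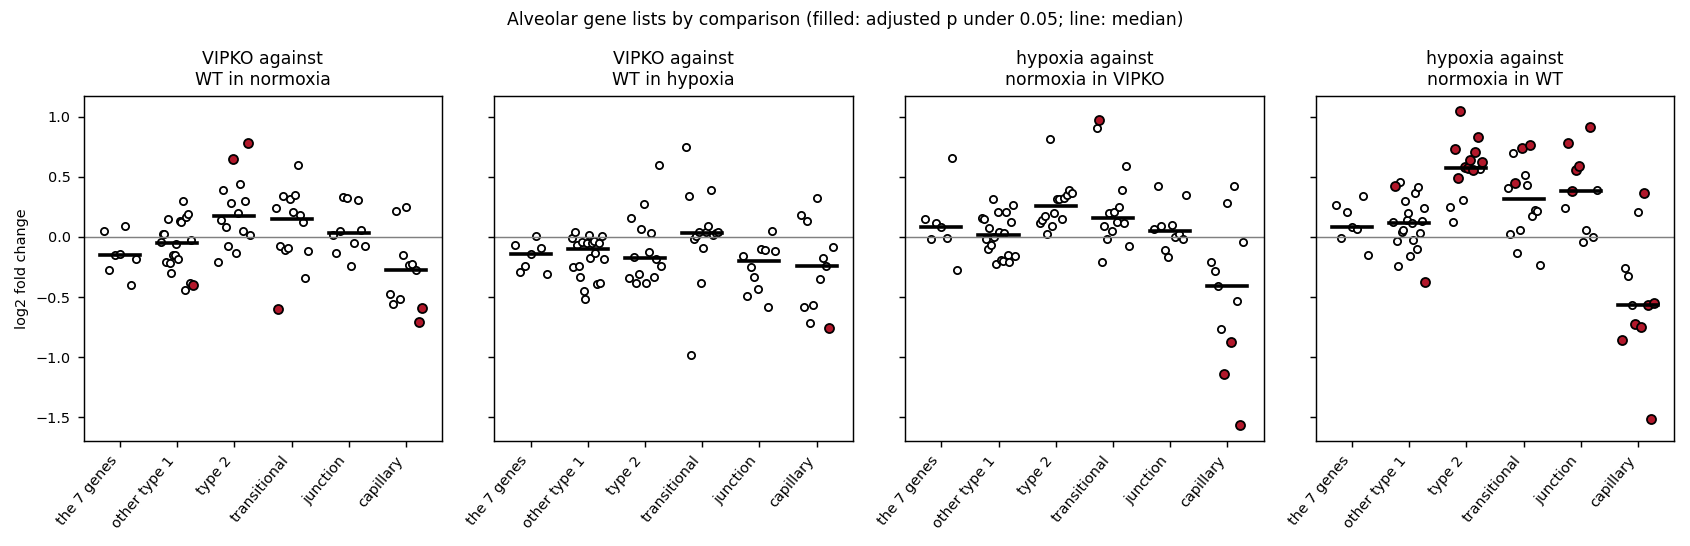
Log2 differences (vertical axis) of the 7 genes and of 5 other lists (horizontal axes) in 4 comparisons. Points are genes, filled red where the adjusted p was under 0.05, and bars are list medians. In WT hypoxia the median was 0.08 for the 7 genes, 0.58 for type 2 genes and -0.57 for capillary genes.

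The lists of partners were read member by member. For Ager, 4 of 10 genes for ligands of RAGE and its partners rose in VIPKO against WT in normoxia, beside 4.69% of all genes called higher. S100a11, a calcium-binding protein, had 1664 ± 450 in VIPKO normoxia and 644 ± 325 in WT normoxia (SD, n = 4 and 6), a log2 difference of 1.44 ± 0.28 (limma adjusted p = 0.00621). S100a6, Hmgb1 and S100a4 rose by 0.68, 0.48 and 0.89, calls lost without VIPKO normoxia 2 or VIPKO normoxia 4 (highest limma adjusted p = 0.0936, 0.105 and 0.121). In hypoxia, S100a9 and S100a8, which form the calprotectin of neutrophils, were higher in VIPKO than in WT, beside 0.716% of all genes called higher. S100a9 had 1878 ± 1855 in VIPKO hypoxia and 191 ± 53.3 in WT hypoxia (SD), a log2 difference of 2.59 ± 0.61 (limma adjusted p = 0.0377). S100a8 had 2145 ± 2411 and 234 ± 98.6, a log2 difference of 2.54 ± 0.62 (limma adjusted p = 0.0439). The SDs in VIPKO hypoxia were thus near or above the means. These calls were lost in 6 and 13 of 20 fits that left out 1 library. In WT hypoxia 2 of 10 rose, S100a6 and S100b, beside 7.88% of all genes. Their calls were lost in 7 and 8 of 20 such fits. In hypoxia against normoxia in VIPKO limma called 0 of 10, with 4 at an unadjusted p under 0.05 and 0 with voom weights.

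For Aqp5, 6 of 9 other aquaporin genes passed the filter. Aqp1, the water channel of lung capillaries, had 18168 ± 1537 in VIPKO hypoxia and 11441 ± 1602 in VIPKO normoxia (SD, n = 5 and 4) and rose by 0.67 ± 0.12 on the log2 scale (limma adjusted p = 0.00509), a call kept in each fit that left out 1 library but lost without the 3 libraries apart. Aqp1 fell in VIPKO against WT in normoxia by 0.37 ± 0.11 (limma adjusted p = 0.0464, lost in 15 of 20 fits that left out 1 library). Its difference of 0.31 ± 0.11 in WT hypoxia had a limma adjusted p of 0.0563. Aqp4 rose in WT hypoxia by 0.90 ± 0.26 (limma adjusted p = 0.0282), a call lost without WT hypoxia 1, WT hypoxia 3 or WT normoxia 4 (highest limma adjusted p = 0.0694). Of 11 genes of alveolar fluid transport, Atp1b1, a sodium pump subunit (0.69 ± 0.19), and Slc9a3r1 (0.52 ± 0.17) rose in WT hypoxia, Sgk1, a kinase that raises sodium channel activity, in VIPKO hypoxia (0.78 ± 0.17), and Atp1b3 in VIPKO against WT in normoxia (0.30 ± 0.09). These calls were lost in 3 of 20 fits that left out 1 library for Atp1b1, 13 for Slc9a3r1, 5 for Sgk1 and 6 for Atp1b3. Of all genes, 7.88% were called higher in WT hypoxia, 0.614% in VIPKO hypoxia and 4.69% in VIPKO against WT in normoxia. In VIPKO against WT in hypoxia limma called 0 of 11, with 1 at an unadjusted p under 0.05 and 1 with voom weights.

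For Akap5, Trpv4, the calcium channel that the scaffold couples to its kinases, rose in hypoxia in each genotype. It had 384 ± 41.4 in VIPKO hypoxia and 204 ± 27.9 in VIPKO normoxia (SD, n = 5 and 4), a log2 difference of 0.91 ± 0.11 (limma adjusted p = 0.000129). It had 332 ± 28.5 in WT hypoxia and 247 ± 16.9 in WT normoxia (n = 5 and 6), a difference of 0.42 ± 0.10 (limma adjusted p = 0.0123). These Trpv4 calls held in every fit that left out 1 library, and its interaction of 0.49 ± 0.15 did not pass (limma adjusted p = 0.144). Prkar2b, a regulatory subunit of protein kinase A, had 919 ± 674 in WT hypoxia and 381 ± 43.1 in WT normoxia. It rose (1.03 ± 0.27) in a comparison in which summed adipocyte signal differed as given for the type 2 genes, the part of which was not tested. Also in WT hypoxia the calcium channel gene Cacna1c fell (-0.74 ± 0.23), and the adenylyl cyclase gene Adcy6 was lower in VIPKO than in WT in normoxia (-0.33 ± 0.08), out of 12 partners. These calls were lost in 1, 9 and 3 of 20 fits that left out 1 library. For Prkar2b it was without WT hypoxia 1 (limma adjusted p = 0.0501). For Adcy6 it was without VIPKO normoxia 2, 3 or 4 (highest limma adjusted p = 0.0746). For hypoxia against normoxia, 14.7% of all genes were called in WT and 0.997% in VIPKO. In VIPKO against WT in normoxia 8.65% were.

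For Clic5, of 7 genes of the CLIC family and the ezrin proteins, Clic6 (0.77 ± 0.18) and Clic1 (0.42 ± 0.13) rose in WT hypoxia and Clic6 in VIPKO against WT in normoxia (0.62 ± 0.19, limma adjusted p = 0.0499). The Clic6 call in WT hypoxia held in each fit that left out 1 library. That of Clic1 was lost in 7 of 20 and that of Clic6 in normoxia in 12 of 20. Of all genes, 7.88% were called higher in WT hypoxia and 4.69% in VIPKO against WT in normoxia. For Igfbp2, 4 of 12 measured genes of the insulin-like growth factor axis were called in WT hypoxia, beside 14.7% of all genes. Igfals, which stabilizes the growth factors in serum, was higher (1.39 ± 0.26, with 53.8 ± 20.2 in WT hypoxia and 19.3 ± 4.23 in WT normoxia), as was Igfbp5 (0.81 ± 0.27). The receptor gene Igf1r (-0.31 ± 0.07) and the binding protein gene Igfbp3 (-0.99 ± 0.27) were lower. Igfals and Igf1r kept these calls in each fit that left out 1 library, Igfbp3 lost its call without WT hypoxia 1 (limma adjusted p = 0.0518) and Igfbp5 in 15 of 20. Igf1r was also lower in VIPKO than in WT in normoxia (-0.25 ± 0.08, limma adjusted p = 0.0446), a call lost in 10 of 20. In hypoxia against normoxia in VIPKO and in VIPKO against WT in hypoxia limma called 0 of the 12, with 3 and 4 at an unadjusted p under 0.05, and voom weights called 0 and 1.

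Lists of neighbouring and other cell types were read beside the members. The capillary list, which shares the barrier with type 1 cells, had 6 of 11 genes lower and 1 higher in WT hypoxia, beside 6.77% and 7.88% of all genes. In this list 3 were lower in VIPKO hypoxia (0.383% of all genes), 2 lower in VIPKO against WT in normoxia (3.96%) and 1 lower in VIPKO against WT in hypoxia (0.9%). Its summed signal was 15446 to 19527 in VIPKO hypoxia, 22226 to 26741 in VIPKO normoxia, 15407 to 27145 in WT hypoxia and 27148 to 34753 in WT normoxia. Airway secretory and gland genes were called for 9 of 10 in VIPKO against WT in normoxia and 7 of 10 in WT hypoxia, all higher, ciliated cell genes for 5 of 8 in each, all higher, and adipocyte genes for 2 and 6 of 7, all higher. Of all genes, 4.69% and 7.88% were called higher in the same comparisons. In hypoxia against normoxia in VIPKO and in VIPKO against WT in hypoxia limma called 0 genes of these 3 lists, with at most 4 of a list at an unadjusted p under 0.05 and 1 ciliated cell gene with voom weights in the second of them, and the interaction called 1, the airway gene Bpifa1, lower. Limma called 0 skeletal muscle, cardiac muscle, thymic and mesothelial genes in each of the 5 comparisons, with at most 3 of a list at an unadjusted p under 0.05 and 1 mesothelial gene with voom weights. Of the 6 thymic genes only Cd8b1 passed the filter on low values and was tested, and some skeletal muscle genes did not pass. A gene high in only 1 library can fail that filter, so these counts cannot speak to such genes. Summed skeletal muscle signal reached 37303 in WT hypoxia 5, against at most 135 in WT normoxia. In the same library summed cardiac muscle signal reached 14193, against at most 6079 in WT normoxia, and summed adipocyte signal 16130, against at most 440.2. Summed thymic signal reached 16918 in VIPKO hypoxia 3, where 4 of the 7 members were above their mean. Of all marker genes, 1, the skeletal muscle myosin gene Myh4, was at 0 in all libraries of a group, WT normoxia. The part of these tissues and cell types in the values of the 7 genes was not tested.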

How the data were processed

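RNA was measured in 20 whole-lung libraries in 4 groups. Per the labels' protocols, RNA came from the RNeasy Mini Plus kit and libraries from 1 µg of total RNA with a directional kit. Partek and the mm10 build are named by the submitters' processing notes. For the aligner, counting strand, annotation and normalization: not given in the sources used here. Values in the deposited table are a normalized signal per gene. Of its 30746 rows, 55 lack a gene name and were dropped.

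On log2(signal + 1), 21658 genes reached 10 in 4 or more libraries and entered limma 3.58.1 (R 4.3.3), in a single model of the 4 group means over the 20 libraries, with a variance trend. The steps were tested on simulated data. Single values were compared with 2-sided exact permutation tests. The smallest p these allow is 0.00476 for 210 splits, the design of VIPKO against WT in normoxia. Depth was estimated from each library's most frequent low value above 0, taken as 1 read. The low values of VIPKO hypoxia 2 were whole multiples of it for only 41.5% (within 0.05 reads), so no count model was run on these values as the main test. Gene positions and lengths come from GENCODE vM21 (GRCm38). Promoters were searched over the 250 bases before the start, which leaves out bases transcribed from it, where a window around the start had been planned. All 7 genes are named, with up to 4 called genes by smallest p from each of 23 lists and, by correlation, 5 genes for Ager and 2 for each other member. In each list, genes beyond these were chosen after their values were seen. The list of partners of Rtkn2 is not reported here. The members and lists were chosen with earlier results of these data known. Python 3.11.15 made the tables and plots.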

Additional observations from a re-analysis of the deposited data

Results flagged for a closer look

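Of 28 combinations of the 7 genes and 4 groups, 1 held a library far from the others of its group. The Akap5 signal of VIPKO normoxia 4 was 14581, while the other 3 libraries of the group lay between 11082 and 11514, so that the gap to the nearest took 0.876 of the group's range. At the 95% critical value used, chance alone marks about 1 in 20 groups. The same library was above its group's mean for all 7 genes.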

How the results depend on the processing

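None of the 7 genes passed the threshold in the main result of any comparison, and the counts stayed at 0 in every alternative but 2. With library weights, 1 member was called in VIPKO against WT in normoxia: Igfbp2, at -0.54 ± 0.20 (limma adjusted p = 0.0473). That setting called 5448 of all genes in this comparison, against 1873 in the main fit. Without WT hypoxia replicate 4, 1 was called in VIPKO against WT in hypoxia: Rtkn2, at -0.46 ± 0.12 (limma adjusted p = 0.0492). The fits that left out 1 library called 35 to 1339 of all genes in that comparison, against 350 in the main fit. Otherwise the log2 differences of members kept their direction and side of the threshold in 486 of 518 values over the other settings and in 650 of 700 with 1 library left out. The cause of each change below was not tested. The normalization is unknown, and the upper quartile rescaling moved the median of all genes by -0.097 in hypoxia against normoxia in WT.

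These directions reversed. In VIPKO against WT in normoxia, Ager was -0.014 with library weights and -0.35 with mitochondrial ribosomal RNA as covariate, and Aqp5 was 0.027 and Clic5 0.074 without the 3 libraries apart on the first component. In hypoxia against normoxia in WT, Hopx was -0.030 and Clic5 -0.019 with upper quartile rescaling, Clic5 -0.034 with quantile normalization, Rtkn2 0.019 and Akap5 0.055 with library weights, and Akap5 0.054 without VIPKO hypoxia 3 and WT hypoxia 5 together and 0.029 with Xist signal as covariate. In hypoxia against normoxia in VIPKO, Ager was -0.0044 and Clic5 -0.073 with quantile normalization, Hopx 0.074 and Akap5 0.031 with Xist signal as covariate, and Clic5 -0.11 without the 3 libraries apart. In VIPKO against WT in hypoxia, Hopx was -0.14 with library weights, -0.13 without VIPKO hypoxia 3 and WT hypoxia 5 together and -0.011 with voom weights. In the interaction, Akap5 was 0.023 with upper quartile rescaling and 0.0025 with the Xist covariate, Ager 0.089 with the mitochondrial covariate, Clic5 -0.039 with quantile normalization, -0.085 with library weights, -0.027 with voom weights and -0.19 without the 3 libraries apart, and Igfbp2 -0.019 without them. The Xist covariate and the fit without the 3 libraries were chosen after seeing the data.

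The main fit took the libraries as unpaired. The deviations of 18 same-numbered pairs correlated at -0.289 to 0.410, with 5 over 0.1. Without values for pairs of unlike numbers beside them, these do not settle whether the replicate numbers pair the libraries. With the replicate number as a block, 0 members were called in each comparison, Akap5 was 0.039 in hypoxia against normoxia in WT and 0.020 in VIPKO, Hopx 0.0081 in VIPKO and Clic5 -0.045 in the interaction, and all genes called were 682 in VIPKO against WT in normoxia, 149 in hypoxia, 90 for hypoxia in VIPKO, 1544 in WT and 0 for the interaction.

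With 1 library left out, ranges that crossed 0 were these. VIPKO against WT in hypoxia gave -0.17 to 0.033 for Ager, -0.11 to 0.14 for Hopx and -0.19 to 0.013 for Igfbp2. VIPKO against WT in normoxia gave -0.079 to 0.13 for Ager and -0.040 to 0.16 for Hopx. Hypoxia against normoxia in VIPKO gave -0.061 to 0.071 for Akap5, -0.0096 to 0.24 for Aqp5, -0.042 to 0.22 for Clic5 and -0.096 to 0.12 for Hopx. Hypoxia against normoxia in WT gave -0.11 to 0.12 for Akap5, -0.065 to 0.19 for Hopx and -0.24 to 0.0062 for Rtkn2. The interaction gave -0.22 to 0.014 for Ager, -0.14 to 0.092 for Akap5, -0.21 to 0.032 for Aqp5, -0.12 to 0.14 for Clic5 and -0.20 to 0.052 for Hopx.

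Counts over all genes, which give the background, moved more. Over the other settings they were 0 to 5448 for VIPKO against WT in normoxia (1873 as reported), 9 to 1926 in hypoxia (350), 45 to 717 for hypoxia in VIPKO (216), 1539 to 6590 in WT (3173) and 0 to 2228 for the interaction (61). With 1 library left out they were 359 to 2551, 35 to 1339, 88 to 392, 1382 to 4710 and 4 to 541 in the same order. A fit on the compared groups alone gives no interaction.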
